A study of Homo sapiens with 2 samples.

Results

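The keratin-associated protein genes (KRTAP) were examined on arrays of hypoxic MDA-MB-231 cultures. MDA-MB-231 is an established human line from breast cancer. Members were the protein-coding genes with a symbol of KRTAP followed by a digit and at least 1 transcript cluster, the array's gene-level probe set, in the deposited table. There were 84 of them among 14884 genes with a named cluster, 11916 of these protein-coding. RefSeq lists 94 such coding genes, and those without a named cluster were not analysed here. The genes themselves were matched by symbol, but the family was selected on its difference between these arrays in an earlier scan of gene families, so that difference is given below as a description.

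One array held RNA from treatment with a miR-544 antagomir, a synthetic oligonucleotide made to inhibit that microRNA. The other held RNA from treatment with compound 1, a compound the study set beside the antagomir. Treatment began 24 hours ahead of the hypoxic period, which lasted 5 days with oxygen under 1%, and samples were pooled before hybridisation, so all values come from hypoxic, treated cells of a single line. Each treatment has a single array (n = 1), so no error or p-value can be given, and treatment cannot be told apart from pool or hybridisation. Values are log2 signals. The signal of a cluster also depends on its probes, so the order of clusters by signal is not an order of transcript amounts.

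Keratin-associated proteins fill the space between the keratin filaments of the hair shaft and are cross-linked to them and to each other. They are small proteins encoded by short genes that lie in dense blocks, and they are made late in hair differentiation, after the hair keratins. By composition they fall into high sulfur and ultra-high sulfur proteins, which are rich in cysteine, and high glycine-tyrosine proteins. Breast epithelium is not a tissue in which they are known for a structural role.

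Of the 84 members, 70 had a sequence in the RefSeq promoter table (GRCh38.p14), which gives 250 bases before and 50 after each annotated start. The 100 bases before the start are shown for KRTAP2-3, which had the highest signal of the family. They are also shown for its close relative KRTAP2-4, which had the highest difference, and for members of other subfamilies. They are given because the letters TATAAA, the core of a TATA box, recur upstream of many members. All promoters shown carry these letters, which not every member does. Capitals mark the TATAAA nearest to the start, and all sequences run 5′ to 3′ on the gene's strand.
KRTAP2-3 (chr17:41060115-41060214, minus strand): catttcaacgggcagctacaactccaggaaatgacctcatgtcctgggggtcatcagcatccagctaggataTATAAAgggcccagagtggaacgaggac
KRTAP2-4 (chr17:41065880-41065979, minus strand): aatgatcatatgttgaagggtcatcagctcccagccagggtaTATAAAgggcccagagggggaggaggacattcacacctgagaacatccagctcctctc
KRTAP1-5 (chr17:41027209-41027308, minus strand): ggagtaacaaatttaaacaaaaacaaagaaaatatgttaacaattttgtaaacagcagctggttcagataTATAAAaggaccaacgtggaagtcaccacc
KRTAP10-9 (chr21:44626993-44627092, plus strand): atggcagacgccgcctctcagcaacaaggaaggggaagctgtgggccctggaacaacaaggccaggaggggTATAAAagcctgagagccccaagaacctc
KRTAP4-8 (chr17:41098143-41098242, minus strand): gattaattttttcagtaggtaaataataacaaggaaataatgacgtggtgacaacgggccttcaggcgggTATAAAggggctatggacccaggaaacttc
KRTAP19-6 (chr21:30541865-30541964, minus strand): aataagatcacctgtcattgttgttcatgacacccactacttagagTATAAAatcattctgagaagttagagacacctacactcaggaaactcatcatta

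The letters TATAAA on the gene's strand within these 100 bases were found in 50 of 70 KRTAP promoters (71.4%) and in 712 of 15843 protein-coding promoters (4.49%). Between 40 and 16 bases before the start, where a TATA box usually lies, they were found in 31 of 70 (44.3%) and in 3.64% of all. In KRTAP2-3 the motif began 28 bases before the annotated start and in KRTAP2-4 58 bases before it. Aligned on the motif without gaps, from 26 bases before it to 22 after it, these genes were identical at 46 of 54 bases, and KRTAP2-2 and KRTAP2-4 at 52 of 54. The bases of the motif itself are among the 54 and match by construction. Over the full 300-base window and both strands, CTTTGA, a core that LEF1 can bind, was present in 25.7% of KRTAP promoters and 10.9% of all, and ACGTG, the core of hypoxia response elements, in 14.3% and 23.7%. The windows also differ in composition, with a median GC content of 42.3% in KRTAP promoters and 62.7% in all, and a median of 2 CG dinucleotides against 22. The 31 promoters with TATAAA between 40 and 16 bases before the start had a median mean signal of 4.77, and the 39 without it there 4.76. These 39 are not all without the letters, since KRTAP2-4 and KRTAP19-6 (54 bases before the start), for example, carry them further upstream.

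Most of the family lay at the low end of the array, and a few clusters lay far above the rest. The median signal was 4.82 with the antagomir and 4.93 with compound 1, against 7.08 and 7.04 for all protein-coding genes. The median member stood at percentile 35.0 of all 53617 clusters, and the median protein-coding gene at 74.6. Of the 84 members, 41 fell in the lowest decile of protein-coding genes by mean signal. At or above the median cluster level of 5.60 on at least 1 array were 32 members (38.1%), where 80.4% of protein-coding genes passed this level. Only KRTAP2-3 and KRTAP5-7 lay above the 90th percentile of clusters. The levels of the 84 members correlated between the arrays with r = 0.989, a value across genes of differently treated samples and not across replicates.

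**Figure D1:**
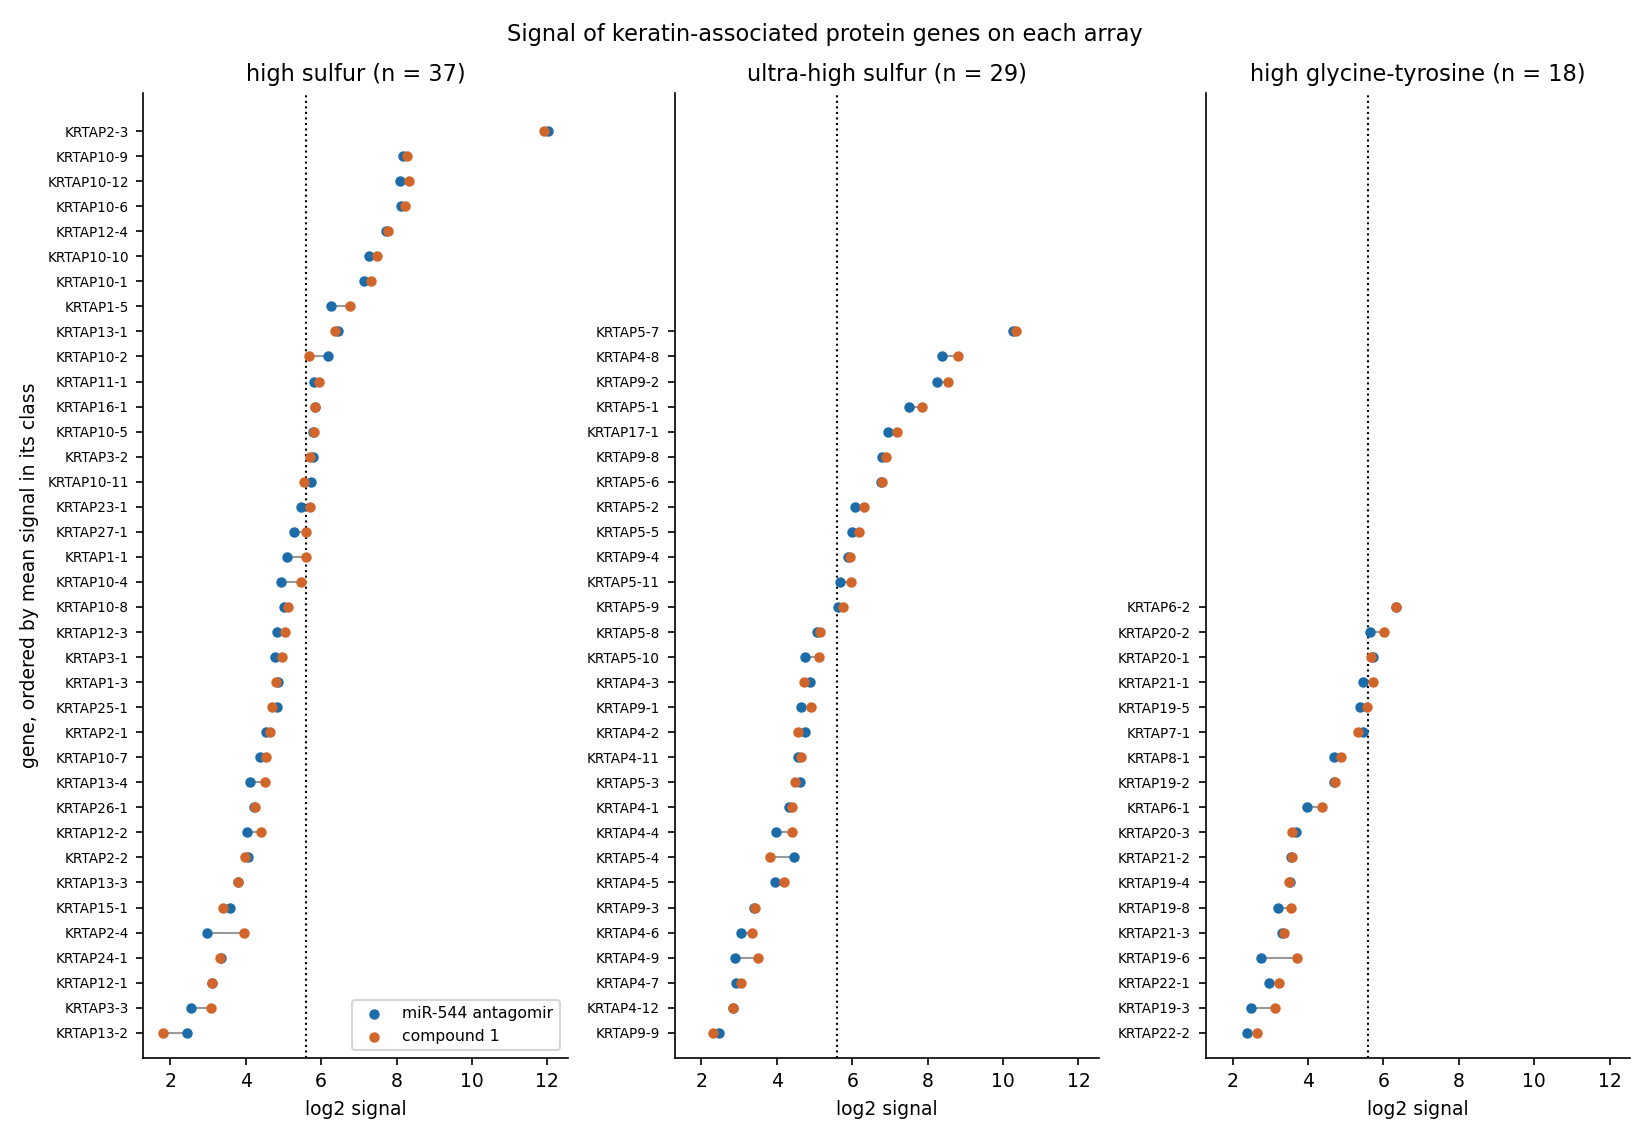
Log2 signal (horizontal axis) of each of the 84 KRTAP genes on the antagomir array (blue) and the compound 1 array (orange), ordered by mean signal within protein class; the dotted line is the median cluster level, 5.60. Most genes lie left of the line on both arrays, while KRTAP2-3 (12.03 and 11.91) and KRTAP5-7 (10.27 and 10.35) stand apart on the right.

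High sulfur members numbered 37, with a median mean signal of 5.20 and a range from 2.13 to 11.97. KRTAP2-3 led the class and the family, at 12.03 with the antagomir and 11.91 with compound 1, percentile 99.2 of all clusters. Its neighbours of the same subfamily gave low signals: KRTAP2-1 was at 4.55 and 4.65, KRTAP2-2 at 4.06 and 3.99 (both singled out after their values were seen), and KRTAP2-4 at 2.96 and 3.95. The high signal was thus seen in 1 of 4 KRTAP2 clusters. Whether the probes tell close KRTAP relatives apart was not tested, so the signal is that of the cluster named KRTAP2-3. For comparison, the mesenchymal marker VIM, which these cells are known for, was at 10.61 and 10.49, and AXL at 12.78 and 12.77. Such signals do not rank transcript amounts between clusters.

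The next highest high sulfur clusters belonged to KRTAP10 and KRTAP12, subfamilies of the hair cuticle. KRTAP10-9 was at 8.18 and 8.27, KRTAP10-12 at 8.09 and 8.32, and KRTAP10-6 at 8.13 and 8.23. KRTAP12-4 was at 7.71 and 7.76, KRTAP10-10 at 7.26 and 7.48, and KRTAP10-1 at 7.15 and 7.31. All 6 were slightly higher on the compound 1 array. KRTAP10-5 was at 5.78 and 5.81, KRTAP10-11 at 5.73 and 5.55, and KRTAP10-2 at 6.17 and 5.69, the lowest difference of any member above the median cluster level. KRTAP10-4 differed in the other direction, at 4.93 and 5.47. All 15 members of these subfamilies overlap TSPEAR in RefSeq, and the TSPEAR cluster was at 6.45 and 6.43. Whether probes of the overlapping genes tell them apart was not tested.

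Among other high sulfur members above the median cluster level, KRTAP1-5 had the largest difference, with 6.26 under the antagomir and 6.76 under compound 1. KRTAP13-1 was at 6.44 and 6.37, KRTAP11-1 at 5.82 and 5.93, KRTAP16-1 at 5.85 and 5.84, KRTAP3-2 at 5.78 and 5.70, and KRTAP23-1 at 5.45 and 5.72. Near the floor of the class were KRTAP13-2 (2.45 and 1.80), KRTAP3-3 (2.56 and 3.09) and KRTAP15-1 (3.59 and 3.40). KRTAP12-1 (3.12) and KRTAP13-3 (3.79) had identical values on both arrays, and the pair of values of KRTAP13-3 recurred in 3 other clusters, CRISP1 and OTOGL among them. KRTAP10-7 (4.38 and 4.55) shared its values with 2 unnamed clusters and KRTAP1-5 with 1. The 13 high sulfur members outside the rule for named genes, KRTAP2-1 and KRTAP2-2 among them, had mean signals from 3.34 to 5.43.

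Ultra-high sulfur members numbered 29, with a median mean signal of 4.79. KRTAP5-7, of a subfamily known from the hair cuticle, had the highest signal, 10.27 and 10.35. KRTAP4-8 followed at 8.39 and 8.81 and KRTAP9-2 at 8.25 and 8.55. The remaining 10 KRTAP4 clusters lay below the median cluster level on both arrays, whereas 7 of 11 KRTAP5 and 3 of 6 KRTAP9 clusters reached it. KRTAP5-1 was at 7.51 and 7.85, KRTAP17-1 at 6.95 and 7.19, KRTAP9-8 at 6.80 and 6.90, and KRTAP5-6 at 6.77 and 6.79. Closer to the median were KRTAP5-2 (6.07 and 6.30), KRTAP5-5 (5.99 and 6.18), KRTAP9-4 (5.89 and 5.95), KRTAP5-11 (5.68 and 5.98) and KRTAP5-9 (5.63 and 5.75). All 12 of these ultra-high sulfur clusters were higher on the compound 1 array, except that KRTAP5-6 turned to -0.01 after centring of the array medians.

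At the low end of this class, KRTAP4-9 was at 2.88 and 3.49, KRTAP4-4 at 3.98 and 4.39, KRTAP4-3 at 4.87 and 4.72, and KRTAP4-2 at 4.74 and 4.56. KRTAP5-4 was at 4.45 and 3.82, and KRTAP4-12 was at 2.83 on both. The 11 ultra-high sulfur members outside the naming rule had mean signals from 2.39 to 5.10. The antisense gene KRTAP5-AS1, which is no member, overlaps KRTAP5-1 and KRTAP5-2 in RefSeq and was at 6.52 and 6.87. Its difference of 0.34 equalled that of KRTAP5-1 at this precision, while that of KRTAP5-2 was 0.23. Whether the probes of these genes tell them apart was not tested.

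High glycine-tyrosine members numbered 18 and had the lowest signals, with a median of 3.91. KRTAP6-2 was highest, at 6.34 on both arrays. KRTAP20-2 (5.65 and 6.01), KRTAP20-1 (5.73 and 5.66) and KRTAP21-1 (5.46 and 5.72) also reached the median cluster level on at least 1 array, and the remaining 14 members did not. KRTAP21-1 was the only member with a second cluster, which was at 3.93 and 4.03. Low members named for their differences were KRTAP19-6 (2.77 and 3.71), KRTAP19-3 (2.50 and 3.12), KRTAP6-1 (3.99 and 4.38), KRTAP7-1 (5.45 and 5.32) and KRTAP20-3 (3.70 and 3.57). The 9 members of this class outside the naming rule had mean signals from 2.52 to 5.47.

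By position, the members formed 5 blocks of neighbours in RefSeq, with KRTAP5 genes in a pair of blocks on chromosome 11, 29 genes on chromosome 17, and blocks of 29 and 15 genes on chromosome 21. Median mean signals were 6.13 and 5.69 in the KRTAP5 blocks, 4.65 on chromosome 17, 4.24 in the large chromosome 21 block and 5.79 in the KRTAP10 and KRTAP12 block. The clusters with the highest signal on chromosome 17 included some with low neighbours. KRTAP2-3 lay between KRTAP2-2 and KRTAP2-4, and KRTAP4-8 lay between KRTAP4-7 and KRTAP4-9, which were at 2.91 and 2.88 on the antagomir array. In the large chromosome 21 block, which holds all high glycine-tyrosine members, no cluster mean exceeded 6.41.

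**Figure D2:**
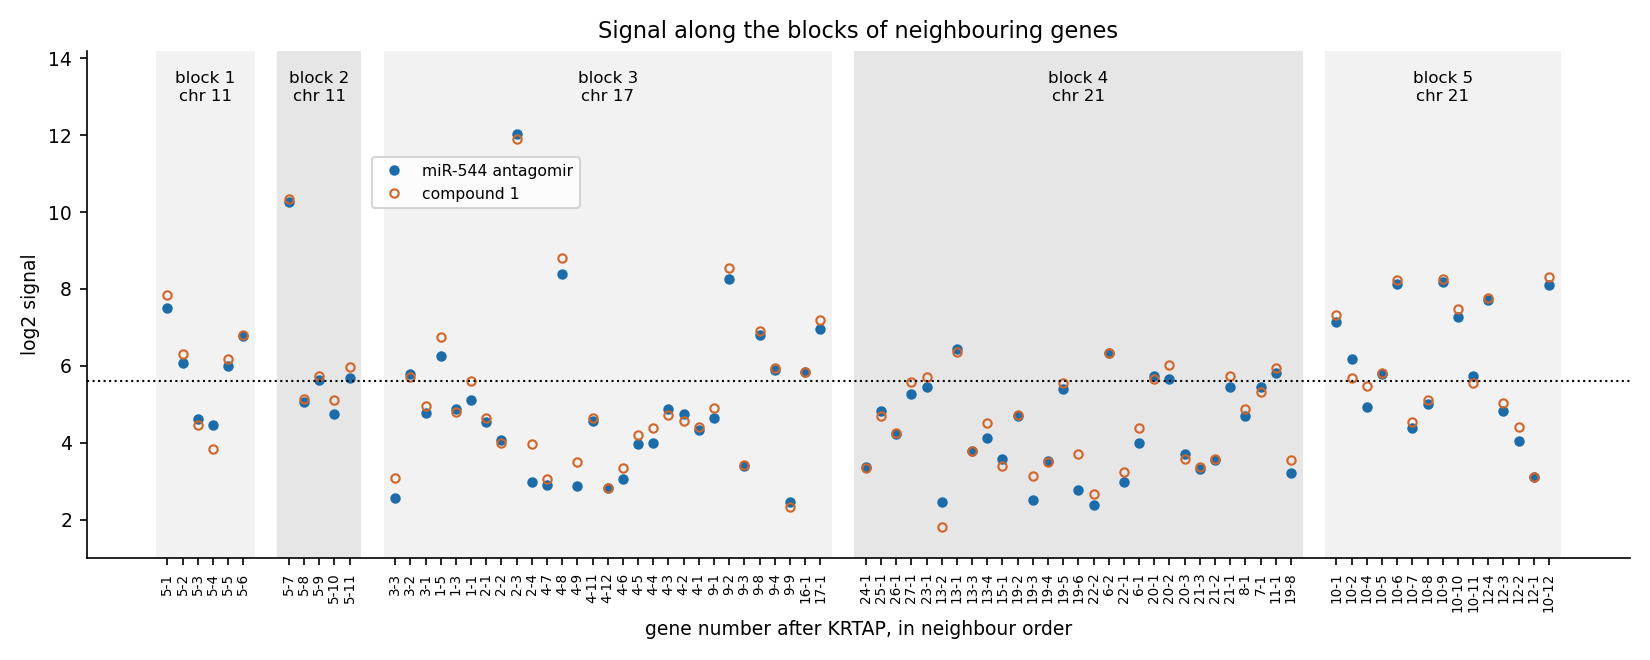
Log2 signal (vertical axis) on the antagomir array (filled) and the compound 1 array (open) of the 84 genes in their order along the chromosome, in 5 shaded blocks; the dotted line is the median cluster level, 5.60. KRTAP2-3 (12.03 and 11.91) and KRTAP5-7 (10.27 and 10.35) rise above their neighbours, and signals in the block of KRTAP10 and KRTAP12 genes range from about 3.12 to 8.32.

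Between the arrays, KRTAP signals were slightly higher with compound 1. The median difference, compound 1 minus antagomir, was 0.10 on the log2 scale, with 59 members higher, 21 lower and 4 identical (53 to 56 higher after the 3 scalings tried). Across all protein-coding genes the median was -0.02 and 44.0% were higher. The difference of protein-coding genes depended on signal, from a median of 0.08 with 60.5% higher in the lowest decile of signal to -0.08 with 23.9% higher in the highest. Among the 41 members in the lowest decile the median was 0.08, with 26 higher, the same median as for all genes there. Set against the median of the decile in which each member lay, 51 of 84 members were above it, by a median of 0.09 over the family.

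Members with mid-range signal were mostly higher with compound 1 where most protein-coding genes of that level were lower, a pattern picked out after the values were seen. In deciles 5 to 8, 12 of 12 members were higher with compound 1, by 0.02 to 0.42 (median 0.19), where 37.3% of 4766 protein-coding genes were higher and their median was -0.06. These were KRTAP5-1, KRTAP5-6, KRTAP9-2, KRTAP9-8, KRTAP17-1, KRTAP4-8, KRTAP12-4 and KRTAP10-1, KRTAP10-6, KRTAP10-9, KRTAP10-10 and KRTAP10-12. Genes of the hair and cornified envelope lists in the same deciles were also mostly higher, 9 of 11 with a median of 0.15 (CUX1 and SPRR2A lower), so the direction was not confined to KRTAP genes. After centring of the array medians 11 of 12 were higher, with KRTAP5-6 at -0.01. The KRTAP10 and KRTAP12 genes among the 12 lie in a single block and all overlap TSPEAR. In decile 4, just below, 2 of 4 members were higher, where 57.5% of protein-coding genes were. In the highest decile KRTAP5-7 was higher by 0.09 and KRTAP2-3 lower, at -0.11. The family was selected on its difference, so these counts are a description.

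**Figure D3:**
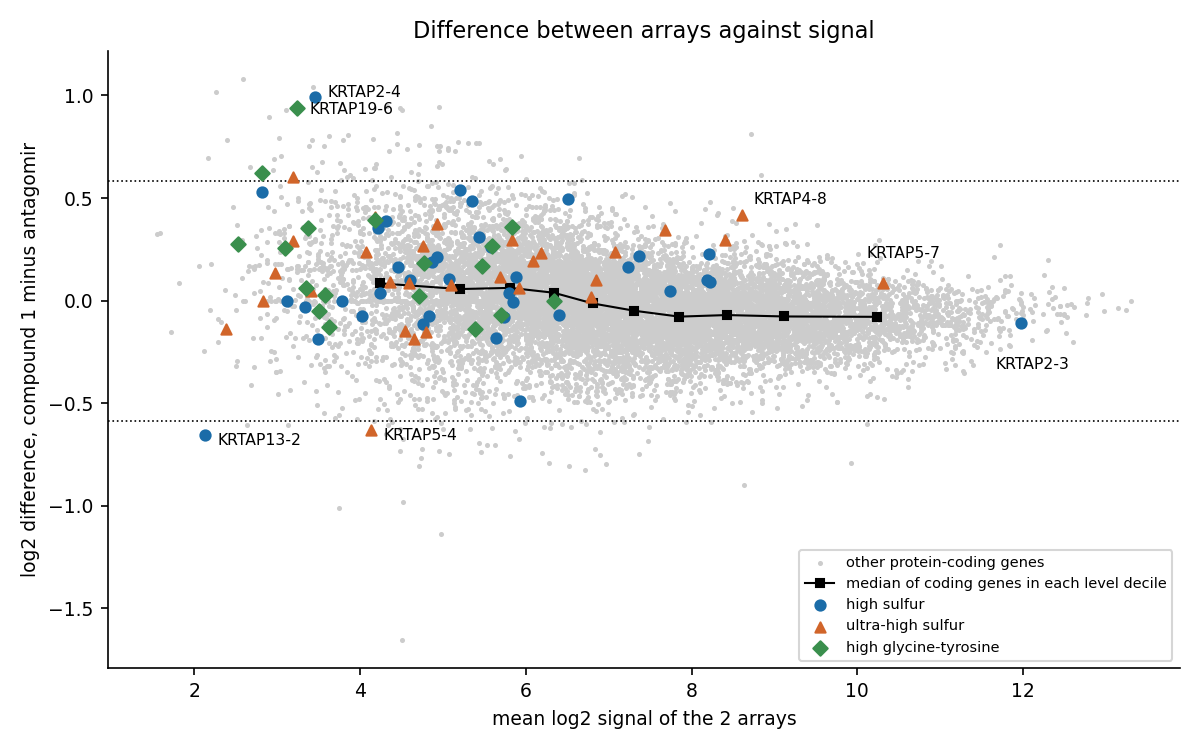
Log2 difference, compound 1 minus antagomir (vertical axis), against mean log2 signal of the arrays (horizontal axis) for KRTAP genes by protein class and for other protein-coding genes (grey); squares join the median of coding genes in each decile of signal, and dotted lines mark 1.5-fold. The largest differences, such as KRTAP2-4 (0.99) and KRTAP13-2 (-0.65), lie at low signal, and KRTAP symbols between about 6.78 and 8.60 lie above 0 while the squares there lie below it.

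Past 1.5-fold, 4 members were higher with compound 1 and 2 lower, where 0.655% of protein-coding genes were higher and 0.478% lower. All 6 lay in the lowest decile of signal, in which these shares were 4.19% and 1.43%. KRTAP2-4 was higher by 0.99 (1.99-fold), KRTAP19-6 by 0.94 (1.92-fold), KRTAP19-3 by 0.62 (1.54-fold) and KRTAP4-9 by 0.60 (1.52-fold). KRTAP13-2 had a difference of -0.65 (1.57-fold lower) and KRTAP5-4 of -0.63 (1.55-fold lower). Past 2-fold there were 0 members, with 0.0252% of protein-coding genes in each direction. Past a log2 difference of 0.32, 17 members were higher and 3 lower, where 5.05% and 5.11% of protein-coding genes were. These shares are over genes of all levels, whereas 66 members lay in the lowest 3 deciles of signal. The robust SD of the differences of protein-coding genes was 0.25 in the lowest decile and 0.11 in the highest. Shares past 0.32 within deciles were not computed, so the counts at this threshold are not matched for signal. The spread of differences narrowed with signal. Its SD across genes was 0.38 for the 22 members with a mean signal under 4, 0.24 for the 43 from 4 to 6, and 0.16 for the 19 at 6 and over, none of which passed 1.5-fold.

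The classes gave similar medians. The median difference was 0.10 for high sulfur members (23 of 37 higher), 0.12 for ultra-high sulfur members (23 of 29) and 0.18 for high glycine-tyrosine members (13 of 18), and differences between classes were not tested. The high glycine-tyrosine median was 0.11 with 10 of 18 higher after cyclic loess, a scaling that removes the trend with signal. After quantile normalization or cyclic loess, 2 members passed 1.5-fold upward in place of 4.

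Other genes of the hair shaft and of cornified epithelium showed differences of similar size, at somewhat higher median signals. The median signals of these lists lay in decile 2 of protein-coding genes (4.81 to 5.53). All protein-coding genes of that decile had a median difference of 0.06, with 59.8% higher, so a positive median was not particular to these lists. Against percentile 35.0 for the median KRTAP gene, the median stood at 46.0 for hair keratins and 48.2 for other hair genes. For the cornified envelope genes it stood at 41.1 (LCE) and 39.4 (SPRR). Of 17 listed hair keratins, the filament proteins that KRTAP proteins embed, 13 had a cluster, with a median mean signal of 5.40 and a median difference of 0.09 (11 higher, 2 lower). KRT85, an early hair keratin, was at 6.52 and 6.74, and KRT33B at 4.84 and 5.34. After cyclic loess the hair keratin median was 0.01 with 8 of 13 higher. Of 26 other hair genes, 22 had a cluster, with a median signal of 5.51 and a median difference of 0.07 (16 higher). Among them HOXC13, a transcription factor that drives hair keratin genes, was at 5.40 and 5.46, FOXN1, another hair factor, at 6.15 and 6.22, and LEF1 at 6.70 and 6.25.

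The cornified envelope genes of the epidermis were in the same range, with median signals of 5.15 for 17 LCE genes and 5.06 for 10 SPRR genes. Their median differences were 0.09 (12 higher) and 0.18 (7 higher). None of the 13 hair keratins with a cluster exceeded a mean of 6.63, and none of the cornified envelope genes 8.33. KRTAP2-3, KRTAP5-7, KRTAP4-8 and KRTAP9-2 exceeded both values. The listed hair keratins KRT34, KRT81, KRT82 and KRT86 had no named cluster, so their signal is not known here. Differences between the families were not tested. Olfactory receptors, taste receptors and beta defensins, also listed for comparison, had 0 clusters among those named here.

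**Figure D4:**
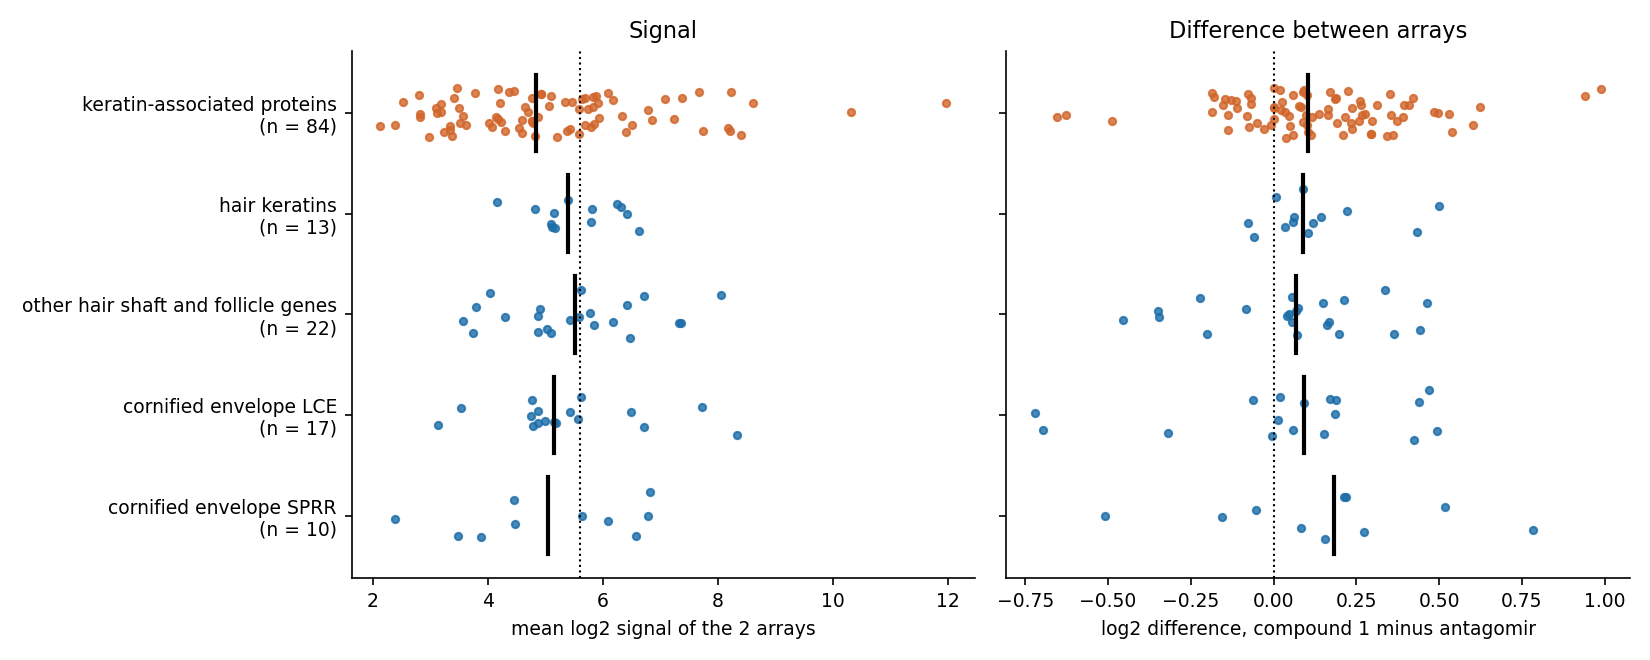
Mean log2 signal of the arrays (left) and log2 difference, compound 1 minus antagomir (right), of each gene in 5 families; black bars are medians and the dotted lines mark the median cluster level (5.60) and 0. KRTAP signals reach from 2.13 to 11.97, beyond the range of the other families on both sides, and all 5 median differences lie between 0.07 and 0.18.

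Cell type markers were read beside these levels. The listed mesenchymal markers SPARC and CAV1 and the listed luminal or epithelial markers ERBB2 and CDH1 had no named cluster. The 5 measured mesenchymal markers (VIM, CD44, AXL, MET and EGFR) had mean signals from 9.06 to 12.77. The 6 measured luminal or epithelial markers ran from low to high, with a median of 7.39. Of these, the hormone receptor genes ESR1 and PGR were at 5.31 and 5.21 and at 4.77 and 4.77, EPCAM at 6.91 and 7.05, KRT8 at 7.80 and 7.81, KRT19 at 9.04 and 8.78, and KRT18 at 11.28 and 11.18. The 10 keratinocyte markers had a median of 5.19 and a maximum of 6.60 (FLG), with KRT5 at 5.24 and 5.40 and KRT14 at 5.42 and 5.63. Their median difference was 0.03, with 5 higher, 4 lower and 1 identical. The 4 melanocyte markers had a median of 4.91 and the 3 measured housekeeping genes 8.72.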

How the data were processed

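The deposited table holds 1 log2 value per transcript cluster and array, as the authors deposited it. Its range (0.614 to 14.19 and 0.372 to 14.20, medians 5.59 and 5.62) places it on a log scale. Base 2 was assumed. The background correction and the normalization count as not given in the sources used here. The platform table gave 1 gene symbol to 16098 of 53617 clusters and several to 0, and left 37519 without a name here. The identifiers of all 16098 were found in RefSeq (GRCh38.p14), used for symbols, gene types, neighbour order and promoters.

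No scaling or level filter was applied. A gene was represented by its cluster with the highest mean. Protein classes follow subfamily numbers (ultra-high sulfur 4, 5, 9 and 17, high glycine-tyrosine 6 to 8 and 18 to 22, high sulfur otherwise), and protein sequences were not used here. Members and lists were chosen with earlier results of these data known. Values are given for, in each class, the 3 members highest in signal, the 3 highest and the 3 lowest in difference, and for any member past 1.5-fold, at or above the median cluster level on either array, with several clusters, with identical values, or with values shared with another cluster. This named 51 of 84. The summaries were checked on simulated data. Alternatives were 3 scalings, a level filter, 2 cluster choices, omission of identical values and 2 fold thresholds. Python 3.11.15, numpy 2.4.6, pandas 2.3.3, matplotlib 3.10.9, R 4.3.3 and limma 3.58.1 were used. The number of arrays limits the precision.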

Additional observations from a re-analysis of the deposited data

How the results depend on the processing

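The family median of 0.10 ranged from 0.07 (array medians centred) to 0.11 (identical values left out), and its median percentile from 34.3 to 36.0. Centring lowered the count of higher members from 59 to 56, quantile normalization to 54 and cyclic loess to 53. Leaving out KRTAP2-3 and KRTAP5-7, chosen after seeing the data, gave 0.11. A median was taken as moved beyond 0.05. Hair keratins moved to 0.033 after quantile normalization and 0.0077 after cyclic loess, SPRR genes to 0.12 and high glycine-tyrosine members to 0.11 after cyclic loess, and ultra-high sulfur members to 0.21 under a filter at the 50th percentile of cluster means, which kept 12 of 29. Members past the fold upward numbered 17 at a log2 difference of 0.32, 0 at 2-fold, 2 after quantile normalization, 2 after cyclic loess and 0 with the level filter. Downward they numbered 0 at 2-fold and 0 with the filter. All 334 values of single named members under alternatives moved by less than 1 robust SD of the genes in their decile. Sign was kept in 311, while KRTAP5-6 (-0.011 after centring) and KRTAP10-5 (-0.010 after cyclic loess) turned sign. The other 21 belong to the 4 members with a difference of 0, which became negative in 12 (the 3 scalings, to -0.095 at most). The level filter and the omission of identical values leave a member's difference unchanged. Cluster choice could alter only KRTAP21-1, the single member with a second cluster. The other named members could change only under the 3 scalings, so the totals above hold many values fixed in advance. No paired analysis was possible because there is a single array for each treatment.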

Other observations

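Exact repeats were frequent among the KRTAP differences. The same size of difference to 5 decimals, in either direction, was held by at least 10 clusters of the array for 16 of the 80 members whose values differed between the arrays (20.0%), against 5.20% of all protein-coding genes and 20.6% of those in the lowest decile of signal. KRTAP4-2 and KRTAP15-1 were both at -0.1847 and KRTAP8-1 at 0.1847, a size found in 75 clusters. KRTAP4-3 had a difference of -0.1522, a size found in 67 clusters, and KRTAP4-6 of 0.2929, found in 60. KRTAP4-7 and KRTAP9-9 had opposite differences of 0.1370 and -0.1370. Values that were the same on both arrays belonged to 4 of 84 members (4.76%), against 1.69% of protein-coding genes and 4.78% in the lowest decile.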
